A study of Scophthalmus maximus with 8 samples.

Results

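A set of 1355 genomic regions, of 114193 found in chromatin accessibility data of the turbot, was open and broad at each of 4 stages from embryo to juvenile, and was chosen by peak overlap and width. Turbot (*Scophthalmus maximus*) is a flatfish whose larva changes from a symmetrical swimmer into a juvenile that lies on 1 side. ATAC-seq, in which the Tn5 transposase cuts DNA that is not wrapped around nucleosomes, was run at 4 stages with 2 biological replicates each, 8 samples in all. The embryo was taken 3 days after fertilization (3dpf, the phylotypic stage), the larva 15 days after hatching (15dph, before metamorphosis) and at 23 days (23dph, the metamorphic climax), and the juvenile at 37 days (37dph, after metamorphosis). The 3dpf samples were whole animals treated with pronase to remove the chorion, and the 3 later stages were bodies whose hind part was cut off at the cloaca, so stage and material cannot be told apart between 3dpf and the rest. Incubation in collagenase to free the cells was also longer at each later stage. Animals were collected until a set number of cells was reached, and no genotype, strain or treatment distinguishes the groups in the labels.

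Peaks of the 4 stage lists that overlapped by at least 1 bp were joined into regions. A region was a member when it held exactly 1 peak of each stage, each peak was at least 400 bp wide, and the 37dph width was more than 60% of the 3dpf width and less than 25% above it. This gave 1355 members among 114193 regions (1.19%, 95% Wilson interval 1.13 to 1.251). They made up 4.76% of the 28454 regions open at all stages and 5.33% of the 25400 regions with 1 peak at each stage, called single-peak shared regions below. Before the limit on the width ratio there were 1497 regions that were broad at all stages, of which 98 fell at or under the lower limit and 44 at or above the upper one. Of the members, 1354 lay on numbered chromosomes and 1 on an unplaced scaffold. The members were chosen by the overlap and the width of the peaks, so their widths are a description and support nothing further, and the label of broad regions that stay broad follows from the rule.

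An accessible region is a stretch of DNA where regulatory proteins keep nucleosomes away. Regions open in many tissues and at many ages are typically promoters of genes that most cells use and sites of architectural proteins such as CTCF, while enhancers tend to be open in particular cell types or at particular times. A broad accessible region often holds several protein binding sites side by side, and a peak caller marks the position with most Tn5 cuts as its summit. The genes around the members and their base sequence were not analysed here, so which kind each member is cannot be said.

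Each stage is represented by 1 list on which both replicates were joined, with 94714, 57611, 47853 and 46248 peaks from the first stage to the last. Where 4 values follow each other below without a stage, they are in this order: 3dpf, 15dph, 23dph, 37dph. Values of single replicates were not used here, so differences between stages carry neither a replicate error nor a p-value. The lists hold no read counts, and the part of sequencing depth in peak width and strength was not tested. The animals are mixtures of cell types, so a region open in more cells and a region more open in each cell cannot be told apart. Wilson intervals cover counting error only, and regions are not replicates of a stage.

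By median width the members were widest in the embryo, and so were the other single-peak shared regions. The median peak width of the members was 555 bp in the embryo (quartiles 487 and 656) and 486 bp in the juvenile (quartiles 440 and 564). The larval stages lay between them, with 546 bp before metamorphosis (quartiles 480 and 642) and 515 bp at its climax (quartiles 454 and 599). The widest stage was 3dpf in 679 members (50.1%), 15dph in 406 (30.0%), 23dph in 164 (12.1%) and 37dph in 106 (7.82%). Each later stage was narrower than the one before in 277 members (20.4%), and each was wider in 13. The median ratio of 37dph to 3dpf width was 0.908. Of all peaks at least 400 bp wide the members were 6.40%, 12.04%, 20.2% and 34.6%. The lists held 21162, 11251, 6705 and 3918 such peaks. By the rule each member has exactly 1 such peak in every list. The rise therefore only restates the lower number of broad peaks in the later lists.

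**Figure D1:**
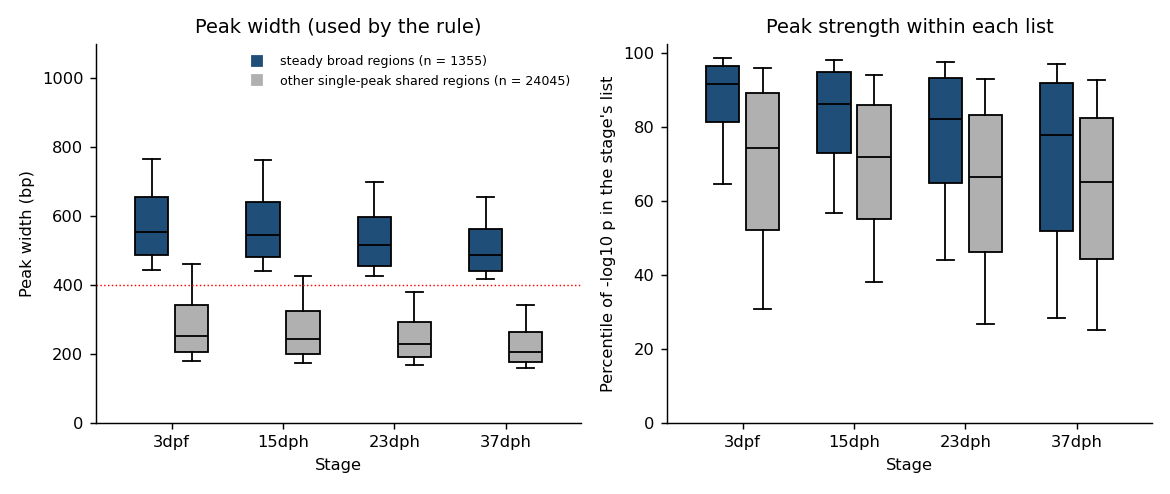
Peak width in bp (left) and the percentile of −log10 p within the list (right) at each stage, for the 1355 members and the 24045 other single-peak shared regions. Boxes give the median and quartiles, whiskers the 10th and 90th percentiles, and the dotted line the limit of 400 bp. Member widths lie above that line because of the rule, and their median percentile goes from 91.8 at 3dpf to 77.9 at 37dph. With lists cut to equal length, which is not drawn, it goes from 84.0 to 78.9.

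Most of a member was open at all stages, while at least 1 border usually moved. The stretch open at all 4 stages had a median of 451 bp (interquartile range 415 to 517), against 598 bp covered at any stage, so that a median of 79.8% of a region was shared by all stages. The lowest shared stretch was 83 bp. The rule chose members by the overlap and width of these same peaks, so the shared stretch is a description and supports nothing further. From 3dpf to 37dph the border that moved less shifted by a median of 15 bp, and the other by a median of 55 bp (interquartile range 31 to 110). In 205 members (15.1%) neither border moved by more than 20 bp. In 312 members (23.0%) 1 border stayed within 20 bp while the other moved by more than 50 bp. Both borders moved in the same direction along the chromosome in 530 members (39.1%). Over all members the lesser move had a first quartile of 6 bp. The count can thus include peaks that changed mainly at 1 border, and it is not a count of shifted peaks.

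Near the limits, regions of nearly equal width fell on either side. The region on chromosome 11 from 14079045 to 14079498 was inside with widths of 433, 454, 421 and 400 bp, and that on chromosome 10 from 11379877 to 11380358 was outside with 455, 425, 399 and 433 bp. The member nearest the lower ratio, on chromosome 10 from 19837398 to 19838139, went from 723 bp at 3dpf to 434 bp at 37dph. Its neighbour beyond the limit, on chromosome 8 from 17780858 to 17781623, went from 766 to 459 bp. At the upper ratio a member on chromosome 4 from 5141770 to 5142491 went from 459 to 573 bp, and the nearest region outside, on chromosome 19 from 15996007 to 15996618, from 434 to 543 bp. In strength the sides were less alike at 400 bp: the 13 members whose narrowest peak measured just that had a median lowest percentile of 91.4 (33.4 to 97.96), and the 19 regions that missed it by 1 bp one of 68.6 (17.3 to 95.4). Both groups are small and their ranges overlap widely, and the difference was not tested.

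Most members were strong peaks, but strength varied widely. Fold enrichment over the local background, as the authors' peak caller gave it, had member medians of 7.47, 6.18, 6.15 and 5.87. Single members ranged from 3.15 to 15.1 in the embryo, from 2.83 to 12.1 and from 2.38 to 12.1 in the larvae, and from 2.71 to 11.3 in the juvenile. In the other 24045 single-peak shared regions the medians were 6.35, 5.38, 5.36 and 5.42. Levels of fold enrichment depend on the libraries of a list, so strength was also read as a percentile, the rank of the peak by −log10 p as a percentage of all peaks of its list. The median member stood at percentiles 91.8, 86.4, 82.1 and 77.9. A percentile depends in turn on the length of the list. With each list cut to the length of the shortest, keeping the peaks with the highest −log10 p, these medians were 84.0, 83.7, 82.5 and 78.9. In the full lists the medians of the other single-peak shared regions were 74.3, 72.0, 66.5 and 65.2. No test of this difference was made, since strength and width come from the same peaks. The members at percentile 90 or above in all 4 lists numbered 296 (21.8%, 19.7 to 24.1), against 7.35% (7.03 to 7.69) of the others. Ranked by fold enrichment instead, the shares were 14.4% (12.6 to 16.4) and 7.27% (6.95 to 7.60). Ranked by −log10 of the global IDR, a measure of agreement between replicates, they were 0% in both. Many peaks tie in this measure, and tied peaks share a percentile. In the 3dpf and 15dph lists the median member sat in a tie below percentile 90. A member in such a tie cannot be counted, so nothing is read from the 0%. The median member stood at percentile 87.6 by it at 3dpf, 88.8 at 15dph and 90.2 at 23dph.

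Among peaks of at least 400 bp, strength went with being open at all stages. The other broad peaks in regions open at all stages had median fold enrichments of 7.53, 5.95, 5.75 and 5.25 in the order of the stages. The member median was just below theirs at 3dpf and above it at the later stages. Their median percentiles by −log10 p were 88.7, 81.6, 74.6 and 64.6, below those of the members at each stage. Broad peaks in regions not open at all stages had lower median fold enrichments of 5.24, 3.83, 3.97 and 3.90. A region counted as open at all stages only if a peak was called in all 4 lists. As calling depends on strength, nothing is read from this difference. The regions broad at all stages whose width ratio was at or below the lower limit had medians of 7.48, 6.12, 5.98 and 5.82. Those at or above the upper limit had 6.05, 5.05, 5.15 and 4.86. At every stage these were the lowest of the 3 classes broad at all stages, the members and the regions beyond either ratio limit. These are descriptions, and the differences between the classes were not tested.

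Width carried almost no information on strength inside the set. Across the 1355 members the Spearman correlation of width with fold enrichment was 0.046, −0.0028, −0.022 and −0.020. Across the other single-peak shared regions it was 0.517, 0.392, 0.397 and 0.310. The width limit restricts the range among members, and both values come from the same peaks. Fold enrichment of a member at 1 stage resembled that at another most for 15dph and 23dph, with a Spearman correlation of 0.905 across members. It did so least for 3dpf and 37dph, with 0.547. The same pairs were highest and lowest across the other single-peak shared regions, with 0.855 and 0.476. The points share libraries, so these are descriptions across regions.

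The 10 strongest members, ranked by their lowest percentile over the 4 lists, were near the top of every list. Their percentiles lay between 99.1 and 99.98. Fold enrichment of these 10 ranged from 9.54 to 13.9 in the embryo, from 8.07 to 12.1 and from 8.55 to 12.1 in the larvae, and from 8.30 to 11.1 in the juvenile. The first, on chromosome 16 from 14746220 to 14746786 of ASM1334776v1, showed fold enrichments of 12.5, 11.3, 11.6 and 10.96 and widths of 567, 529, 497 and 489 bp. Its percentile was 99.9 or higher in every list.

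The second, on chromosome 22 from 5623425 to 5624012, had the highest embryo value of the 10, with 13.9, 12.1, 12.1 and 10.7. The one on chromosome 13 from 1028496 to 1029008 was almost level before any scaling between lists, with 9.56, 9.72, 10.2 and 9.76. A second chromosome 16 region, from 22149869 to 22150447, had 11.2, 9.96, 11.4 and 10.9 before scaling. Its width went from 579 bp at 3dpf to 401 bp at 37dph. Without scaling, these regions differ in whether the embryo or the later stages gave the highest fold enrichment. The region on chromosome 19 from 8159281 to 8160197 had its highest value, 11.1, in the juvenile, after 10.1, 8.80 and 10.4. After division by each list's median over the single-peak shared regions, the ratio of 37dph to 3dpf was 0.907 on chromosome 22. It was 1.03 and 1.14 for the 2 chromosome 16 regions, 1.20 on chromosome 13 and 1.29 on chromosome 19.

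**Figure D2:**
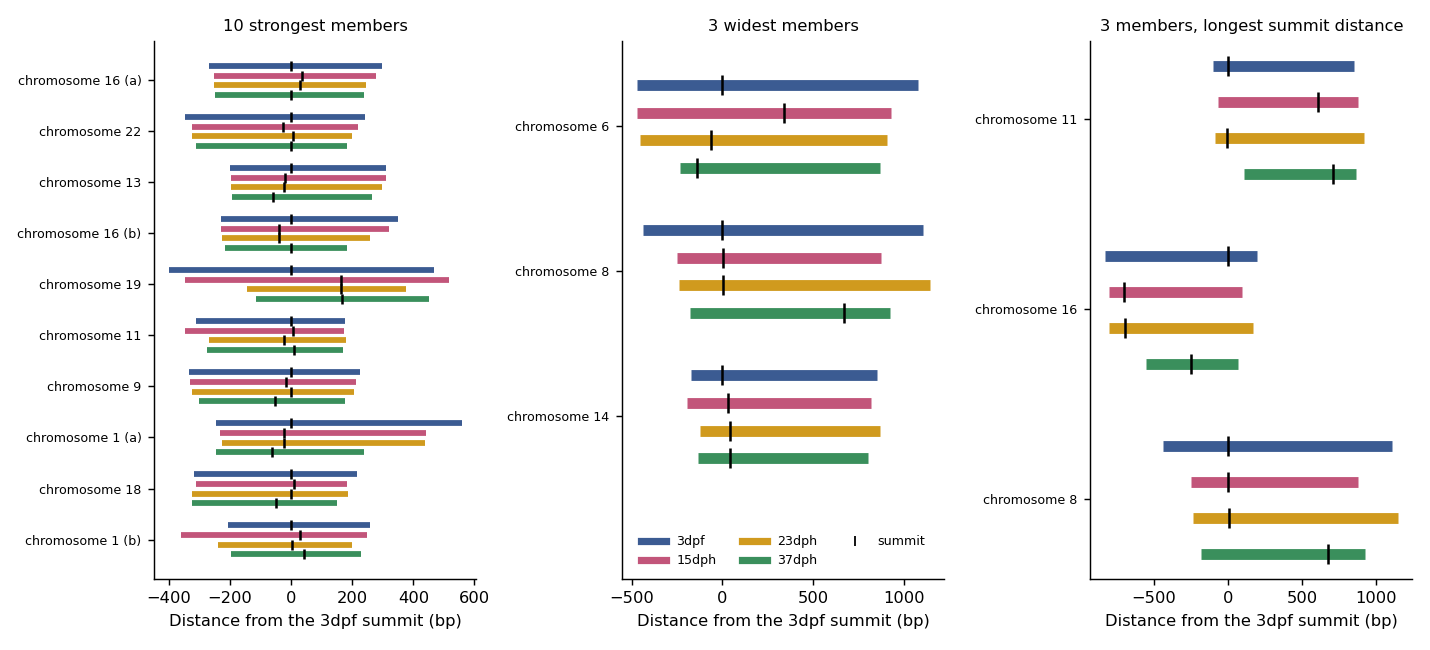
Peaks of the 4 stages as coloured bars and their summits as black ticks, in bp from the 3dpf summit, for the 10 strongest members, the 3 widest and the 3 with the longest distance between summits. In 9 of the 10 strongest members the summits lie within 63 bp of each other, although a border can move further, and in the chromosome 19 region the later summits lie 163 to 167 bp from the 3dpf one; the widest members reach 1552 bp, and in the right panel a summit lies up to 712 bp from that of another stage.

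The 3 widest members, ranked by their narrowest stage, were of middling to high strength. The region on chromosome 6 from 11228902 to 11230454 was 1552, 1401, 1364 and 1105 bp wide. Its fold enrichment was only 5.77, 5.08, 4.93 and 5.82, and its lowest percentile was 56.3. The region on chromosome 8 from 10946329 to 10947909 measured 1545, 1125, 1382 and 1104 bp, with fold enrichments of 7.61, 6.65, 6.16 and 5.93. The third, on chromosome 14 from 5464979 to 5466047, kept its width most closely, with 1023, 1016, 996 and 939 bp. It was also the strongest of the 3, with fold enrichments of 8.50, 7.23, 7.83 and 7.29.

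At the other end, 10 members (0.738%, 0.401 to 1.35) lay below the median of all 4 lists, a group singled out after its values were seen. The share among the other single-peak shared regions was 6.41% (6.11 to 6.73). Their median fold enrichment was 4.21, 3.69, 3.69 and 3.65. The weakest embryo peak among them, on chromosome 1 from 10435132 to 10435922, reached 3.26 there and 3.54, 3.51 and 3.49 later, with widths of 501, 576, 539 and 575 bp. It was broad and weak at each stage.

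Agreement between the replicates of a stage was high for the members. The IDR score, which measures how well a peak's rank is reproduced between 2 replicates, was at its cap of 1000 in 97.8%, 95.8%, 89.6% and 82.1% of members. In the other single-peak shared regions the shares were 86.6%, 89.2%, 78.6% and 77.8%. All 4 scores were at the cap in 1051 members (77.6%, 75.3 to 79.7), against 61.5% (60.9 to 62.1) of the others. No peak of the lists had a global IDR above 0.1, so some agreement was a condition of entry for both groups. Members were also stronger peaks, and the part of strength in the score was not tested.

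Some members differed in strength between stages. Fold enrichment was divided by the median of its list over the single-peak shared regions, which was 6.39, 5.43, 5.38 and 5.44, and a member was called when this scaled value differed by 1.5-fold or more. From 3dpf to 37dph, 152 members were called lower (11.2%), beside 8.24% of all 25400 single-peak shared regions, and 38 were called higher (2.80%), beside 8.61%. The rule used the widths of this same pair of stages, so nothing is read from the difference to the background. The median scaled ratio was 0.926 (interquartile range 0.777 to 1.10).

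Scaling moved these counts. Divided by the median of all peaks of a list instead, 290 members were lower and 12 higher from 3dpf to 37dph (background 15.5% and 3.64%). Without scaling, 355 were lower and 9 higher (background 19.4% and 2.57%). From 3dpf to 23dph the scaled values gave 44 lower (3.25%, background 2.95%) and 22 higher (1.62%, background 4.39%). With all peaks as the scale there were 111 and 6 (background 7.18% and 1.71%), and without scaling 196 and 3 (background 12.2% and 0.843%). From 3dpf to 15dph 34 members were lower (2.51%, background 2.24%) and 11 higher (0.812%, background 2.98%). All peaks as the scale gave 44 and 8 (background 3.23% and 2.23%), and no scaling 140 and 1 (background 10.1% and 0.591%). More members were called lower than higher in each of these settings. With all peaks as the scale and without scaling, the same held for all single-peak shared regions. As the rule used the widths at these stages, nothing is read from the direction of the calls.

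Between the larval stages few members were called, and few of all single-peak shared regions. From 15dph to 23dph 0 members were called higher, beside 0.276% of all single-peak shared regions (the Wilson interval for the members reaches 0.283%), and 2 were called lower (0.148%, background 0.248%). With 1 list per stage no p-value stands behind these calls. From 23dph to 37dph 47 were lower (3.47%, background 2.81%) and 11 higher (0.812%, background 2.12%). The interquartile range of the scaled ratio was 0.932 to 1.09 from 15dph to 23dph and 0.838 to 1.07 from 23dph to 37dph.

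The largest single falls left a weak juvenile peak that was still broad. On chromosome 11 from 17124870 to 17125508 fold enrichment was 10.3, 5.30, 5.40 and 3.41, while the peak measured 605, 567, 599 and 539 bp. This embryo peak stood at percentile 96.7 of its list and the juvenile peak at 5.01. The region on chromosome 14 from 9343912 to 9344550 went from 8.15 at 3dpf to 3.87, 3.09 and 2.98, and that on chromosome 8 from 9393695 to 9394476 from 10.1 to 5.04, 3.77 and 4.02. In both, most of the difference lay between 3dpf and 15dph, and the juvenile peak was also narrower, with 639 against 412 bp in the former and 704 against 466 bp in the latter.

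Changes in the opposite direction were smaller. The largest was on chromosome 5 from 15059810 to 15060420, where fold enrichment was 3.98, 5.01, 4.63 and 6.91, with widths of 509, 606, 545 and 487 bp. The next was on chromosome 11 from 14256673 to 14257140, with 3.35, 4.68, 4.85 and 5.63. On chromosome 1 from 24167721 to 24168420 the values were 3.98, 4.50, 4.39 and 6.36. These 3 were taken for their ratio of 37dph to 3dpf, which fixes the order of those values. Across the set, 83 members (6.13%) stood at percentile 90 or above at 3dpf and below the median at 37dph, against 2.73% of the other single-peak shared regions. The opposite was seen in 2 members (0.148%) and in 0.204% of the others. At 3dpf the median member stood at percentile 91.8, while the third quartile of the others was 89.4. A larger share of members thus started high enough to be counted as falling, and nothing is read from the difference to the others.

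**Figure D3:**
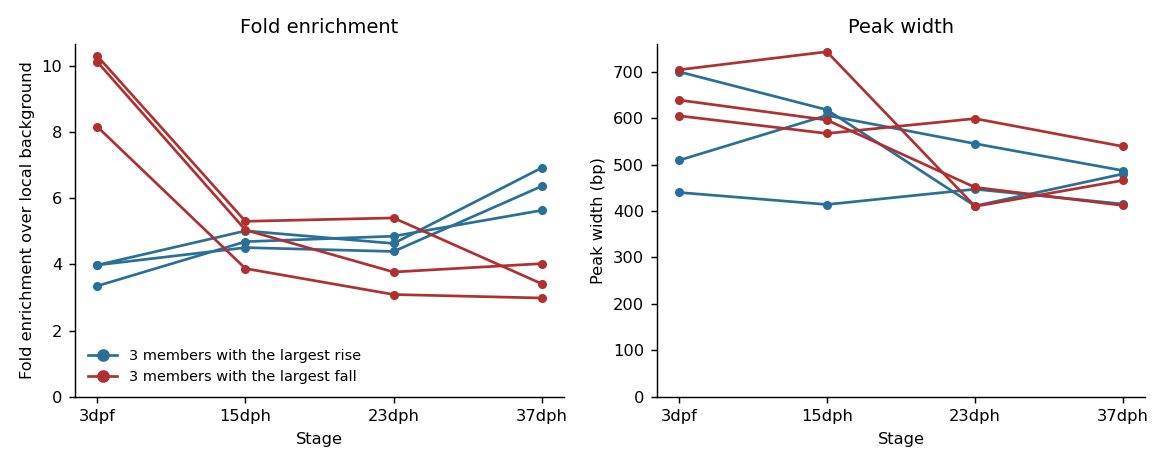
Fold enrichment (left) and peak width in bp (right) at the 4 stages for the 3 members with the largest scaled rise and the 3 with the largest scaled fall from 3dpf to 37dph. The falling members drop from between 8.15 and 10.3 to between 2.98 and 4.02, while all 6 stay at least 400 bp wide, as the rule requires.

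Inside the broad regions the summit was often off centre. A summit was called central when it lay more than 33.3% of the peak's width from either border. This held for 53.5% of members in the embryo (50.8 to 56.1), for 50.7% (48.0 to 53.4) and 47.8% (45.2 to 50.5) in the larvae and for 43.9% in the juvenile (41.3 to 46.6). In the other single-peak shared regions, which are mostly narrow, it held for 85.9%, 86.0%, 88.0% and 90.8%. Peaks of at least 400 bp outside the set gave 47.9% (47.2 to 48.6), 40.1% (39.1 to 41.1), 39.5% (38.2 to 40.8) and 42.8% (40.9 to 44.7). The share of central summits in these other broad peaks was below that of the members at each stage, with overlapping intervals at 37dph. The median distance from the summit to the nearer border was 186 bp at 3dpf and 156 bp at 37dph.

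The summit also changed place between stages in about 1 member of 4. Summits were counted as 1 place when they formed a chain with steps of at most 100 bp. They lay in more than 1 place in 329 members (24.3%, 22.1 to 26.6), among them 21 with 3 places. The share depends on the step, with 47.7% for steps of 50 bp and 17.7% for steps of 150 bp. Of the other single-peak shared regions this applied to 2.94% (2.73 to 3.16), and to 12.1% (11.1 to 13.2) of the 3845 whose 3dpf peak was at least 400 bp wide. In the regions broad at all stages but outside the ratio limits the shares were 22.4% (15.3 to 31.7) of 98 and 34.1% (21.9 to 48.9) of 44. The shares were higher where all 4 peaks were wide, and the part of peak width in them was not tested.

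The stage that stood apart was most often the last or the first. In 99 members the 37dph summit alone lay elsewhere, in 73 the 3dpf summit alone, in 40 that of 23dph and in 19 that of 15dph. The first and last stages also led in the other single-peak shared regions, but in the reverse order. There the 3dpf summit stood alone in 254, that of 37dph in 166, that of 23dph in 71 and that of 15dph in 39. In the remaining splits 2 stages stood against the other two: 3dpf and 23dph lay together against 15dph and 37dph in 32 members, 3dpf and 15dph against the later stages in 28, and 3dpf and 37dph against the larval stages in 17. Between 3dpf and 37dph the summit moved by more than 100 bp in 317 members (23.4%), the most of the 6 pairs of stages. Between 15dph and 23dph it did so in 163 (12.03%), the fewest. In the other single-peak shared regions these pairs gave 3.22% and 1.38%. Where the summits of a member lay in 2 places, these were a median of 210.5 bp apart (interquartile range 168.5 to 270).

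**Figure D4:**
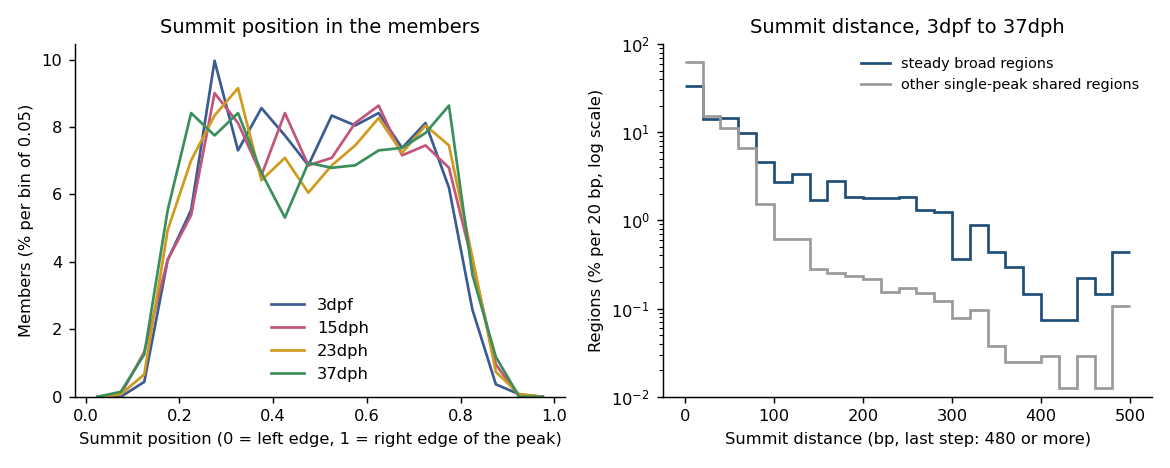
Left, position of the summit across the peak of the 1355 members at each stage, in percent of members per bin of 0.05 of the width. Right, distance between the 3dpf and 37dph summits in bp for members and the other single-peak shared regions, on a log scale; the curve of the members stays above that of the others beyond 100 bp, where 23.4% of members and 3.22% of the others lie.

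Members with a moving summit were weaker peaks of like width. Their median fold enrichment was 6.70, 5.24, 5.19 and 5.08, against 7.80, 6.43, 6.47 and 6.10 in the 1026 members with 1 place. The median widths were 564 and 551 bp at 3dpf and 500 and 482 bp at 37dph. The part of the lower strength in the moved summits was not tested. The longest moves, picked after seeing the values, were on chromosome 11 from 19572925 to 19573941 (712 bp between the most distant summits), chromosome 16 from 12431436 to 12432457 (701 bp) and in the chromosome 8 region of 1545 bp given above (671 bp). In that last region the summits of 3dpf, 15dph and 23dph lay within 6 bp of each other and the 37dph summit stood alone. On chromosome 11 the stages alternated, with 3dpf and 23dph at one end and 15dph and 37dph at the other.

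The members were spread over all 22 numbered chromosomes. They made up 5.33% of the single-peak shared regions on these chromosomes, and the 95% Wilson interval of 1 chromosome did not hold that value. This was chromosome 16, singled out after its value was seen, with 81 members among 1034 single-peak shared regions (7.83%, 6.35 to 9.63). Among 22 intervals at 95%, a miss can be expected without any difference between chromosomes. Chromosome 21 had the lowest share with 28 of 695 (4.03%, 2.80 to 5.76), and chromosome 14 the second highest with 64 of 962 (6.65%, 5.24 to 8.41). Per megabase up to the furthest peak, members ranged from 1.75 on chromosome 21 to 3.59 on chromosome 16. Between 14 and 18 Mb, a stretch also picked from its values, chromosome 16 held 28 of its 81 members. They were 17.1% (12.1 to 23.6) of the 164 single-peak shared regions there. With a width limit of 500 bp its share was 2.03% (1.33 to 3.08), and that interval held the 1.84% found over all regions. With a limit of 350 bp it was 11.5% (9.70 to 13.6) against 8.60%.

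**Figure D5:**
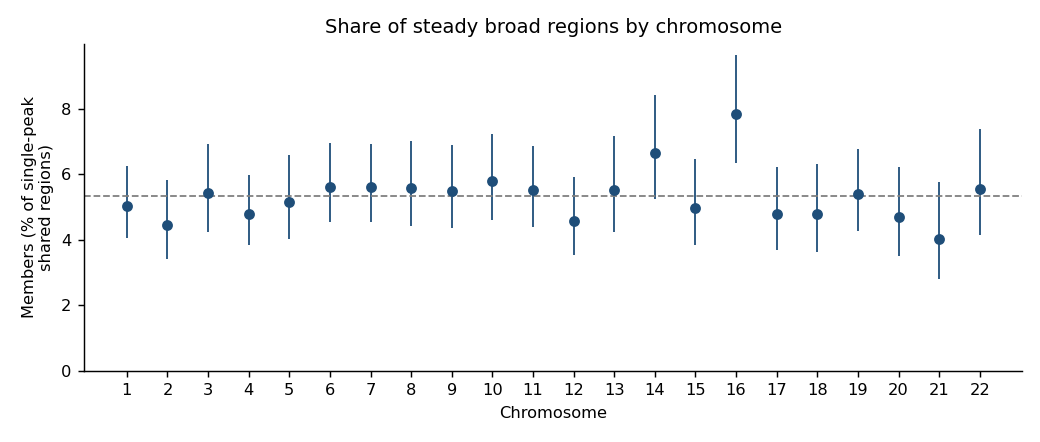
Members as a percentage of the single-peak shared regions on each numbered chromosome, with 95% Wilson intervals; the dashed line is the share over all of them, 5.33%. Chromosome 16, at 7.83%, is the one whose interval lies above the line.

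The neighbourhood of a member resembled that of other shared regions. The nearest region of the atlas lay a median of 611 bp away (interquartile range 164 to 1804), against 657 bp (175 to 2032) for the other single-peak shared regions. A region within 1000 bp was found for 61.0% (58.3 to 63.5) of members and 59.3% (58.6 to 59.9) of the others. Both had a median of 5 other regions within 10000 bp. The median distance to the nearer chromosome end was 27.5% of the chromosome's length for members and 27.7% for the others. By these measures members and other shared regions lay in like surroundings, which were not tested for a difference.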

How the data were processed

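Reads were mapped by the authors to ASM1334776v1 using Bowtie2. They moved reads to the Tn5 cut site, kept nucleosome-free fragments, called peaks with MACS2 in each of 2 replicates per stage and joined the replicates by the Irreproducible Discovery Rate (IDR). The deposited lists, 1 per stage, give peak borders and summit in bp and, from the authors' peak caller, a fold enrichment ratio over local background and −log10 p per peak, with an IDR score capped at 1000. The labels tie each list to both replicates of a stage, the 23dph list included, whose name carries another day. The lowest score was 415, a global IDR of 0.1. Whether fold enrichment rests on pooled reads is not given in the sources used here.

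Peaks overlapping by at least 1 bp across lists were joined, and medians, shares with 95% Wilson intervals and 1.5-fold calls on scaled fold enrichment were computed with Python 3.11.15, numpy 2.4.6, pandas 2.3.3 and scipy 1.17.1. Coordinates count from 1. The linking was tested on simulated data. Named regions are the 10 strongest at their weakest stage, the 3 widest, those nearest each limit and the 3 largest rises and falls. At each limit the first of 3 regions on either side is given, and of the 10 strongest the first 5. Members and rules were chosen with earlier results of these data known. The gene table at hand is of another assembly, so genes, base composition and motifs were not analysed here.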

Additional observations from a re-analysis of the deposited data

How the results depend on the processing

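The number of members followed the width limit, with 2184 at 350 bp and 467 at 500 bp, while the other 5 alternatives gave 1140 to 1538, each less than 1.5 times away. The share with summits in more than 1 place was 21.2% with a global IDR of at most 0.01, 19.8% at 350 bp and 29.1% at 500 bp. With steps of 50 and 150 bp, chosen after seeing the data like the recomputation of all shares under the alternatives for the number of members, it was 47.7% and 17.7%. It was 0% when peaks were linked by summits within 100 bp, by construction. For fold enrichment, given as percent of members lower and then higher, no scaling gave 10.3% and 0.0738% from 3dpf to 15dph, 14.5% and 0.221% to 23dph and 26.2% and 0.664% to 37dph. Scaling by all peaks gave 8.19% and 0.443% to 23dph and 21.4% and 0.886% to 37dph. At 2-fold they were 0% and 0% to 15dph, 0.369% and 0% to 23dph, 0.812% and 0.0738% to 37dph, 0% lower from 15dph to 23dph, and 0.148% and 0% from 23dph to 37dph. In the same order, all single-peak shared regions gave 0.0866% and 0.146%, 0.181% and 0.224%, 1.05% and 0.787%, 0%, and 0.0591% and 0.0354%. Keeping peaks with a global IDR up to 0.01 led to 1.58%, 1.499% and 7.83% lower from 3dpf to the 3 later stages, 0% from 15dph to 23dph and 2.16% from 23dph to 37dph, beside 1.16%, 1.88%, 5.65%, 0.1% and 1.62% of all single-peak shared regions. Equal list lengths gave 8.73% lower from 3dpf to 37dph and 2.61% from 23dph to 37dph, beside 8% and 2.44%. At 500 bp 1.07% were higher from 3dpf to 23dph, 0% lower from 15dph to 23dph and 2.57% lower from 23dph to 37dph, where the regions compared are those of the report (4.39%, 0.248% and 2.81%). Scaling by all peaks and no scaling change the reference and 2-fold is stricter by construction; what caused the remaining changes was not tested. Ranking by fold enrichment or IDR left the median percentile of members between 73.9 and 90.2 at every stage. By fold enrichment the share at percentile 90 or above in all lists went from 21.8% to 14.4%. By IDR this share was 0%, from which nothing is read because of the ties. No paired analysis was possible because both replicates of each stage were merged into 1 list, and no replicate could be left out. Windows for gene starts and sequence were not run: neither genes nor bases were analysed here. The depth behind the peaks limits every comparison of width and strength between stages.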

Other observations

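A few members lay side by side. Gaps between neighbouring members had a median of 238076 bp, but 12 pairs lay within 1000 bp of each other and 44 within 10000 bp. The closest pair was on chromosome 16, where the region from 17079217 to 17079678 ended 28 bp before the one from 17079707 to 17080175. Widths were 433, 460, 423 and 420 bp in the first, in the order of the stages, and 454, 464, 435 and 415 bp in the second. 1 more member within 10000 bp made this a run of 3 from 17069499 to 17080175. On chromosome 1 a gap of 32 bp separated the regions 17436896 to 17437434 and 17437467 to 17437987, and on chromosome 2 a gap of 50 bp those from 9930051 to 9930655 and from 9930706 to 9931333. In each of these pairs both regions kept a separate peak at all 4 stages, as the rule requires. The only other run of 3 lay on chromosome 22 from 1176978 to 1196492.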
